A study of Mus musculus with 6 samples.

Results

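The anterior prostate (AP) of a wild-type (WT) mouse was compared by bulk RNA-seq with the remaining lobes of the same animal, the dorsolateral (DLP) and the ventral prostate (VP). The comparison rests on 3 of the 6 libraries of the series, 1 per WT lobe, and on the 12018 of 24908 listed genes whose mean over these 3 libraries was at least 1 FPKM (fragments per transcript length in kilobases, scaled to the mapped fragments of the library). The WT animal was a 12-week-old littermate, on the FVB background, of a Hi-MYC mouse (MYC) that carries a human c-MYC transgene under the ARR2Pb promoter, a modified probasin promoter active in prostate epithelium, and the MYC animal gave the other 3 libraries, 1 from each lobe. Both mice ate a purified diet. The lobes were digested with enzymes to free their cells, whose RNA was made into poly(A)-selected, stranded libraries. With 1 library per lobe there is no replicate, so every difference is a description of these libraries and no p-value or standard error was computed. In bulk RNA, fewer cells of a type and less RNA per cell cannot be told apart.

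The mouse AP, also called the coagulating gland, lies along the seminal vesicle and is known for a secretion that clots seminal fluid into the copulatory plug. The clotting enzyme is the prostate transglutaminase encoded by Tgm4, which cross-links seminal vesicle proteins. The DLP and VP secrete other products, among them probasin, beta-microseminoprotein and protease inhibitors, and all lobes are built of luminal secretory cells on a basal layer within a muscular stroma.

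The WT AP library was the shallowest, with an estimated 25.5 M reads against 47.2 M for WT DLP and 49.7 M for WT VP, and the MYC libraries held between 34.8 M and 50.2 M. Its compared genes had a median of 345 estimated reads in WT AP, and 144 of them had fewer than 10. Markers of the neighbouring seminal vesicle were almost absent from WT AP. The 10 seminal vesicle markers summed to 0.762 FPKM there, and Svs2, Svs4 and Svs5, which encode its abundant secreted proteins, were listed at 0. The same 10 markers summed to 532.9 FPKM in MYC AP, with Svs4 at 292.5 and Svs5 at 212.0. The 8 markers of vas deferens and epididymis summed to 2.76 FPKM in WT AP, and none of the 8 neuroendocrine markers reached the minimum.

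Which genes set the AP apart was read from the log2 ratio of FPKM + 1 in WT AP to the mean of WT DLP and WT VP. At least 2-fold higher in AP were 401 genes (3.34% of those compared), and 720 (5.99%) were at least 2-fold lower. After the libraries were brought to equal sums of FPKM, the counts were 662 higher and 573 lower. Median-of-ratios size factors gave 492 and 715, and equal sums without the 20 highest genes gave 509 and 691, so that 1 of these 3 scalings turned the excess of lower genes. The ratios had a median of -0.06 and an SD of 0.72 across genes. Those nearest the upper threshold were Pygm inside (1.0005) and Lrrn2 outside (0.9999), and at the lower one Hist1h2bf was inside (-1.0006) and Timm17b outside (-0.9991). Of the compared genes, 80 had under 1 FPKM in both DLP and VP, so only AP brought them past the minimum. Of these, 46 were among the 401 higher genes. The 3.34% and 5.99% are the scale for the counts of list members below.

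**Figure D1:**
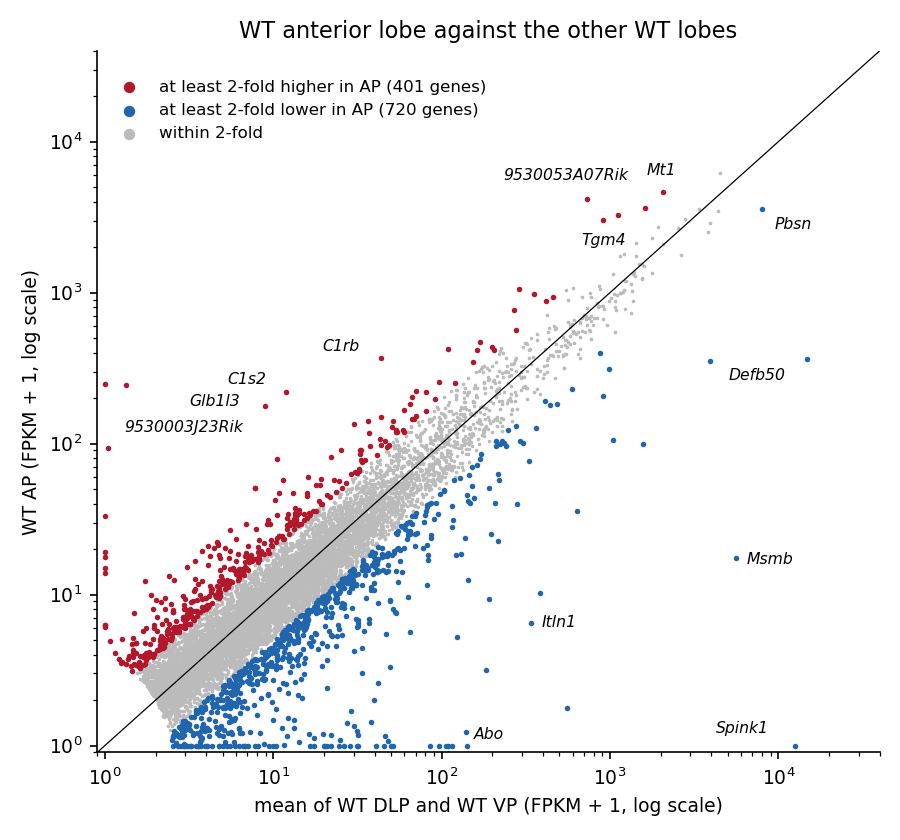
FPKM + 1 of each compared gene in WT AP (vertical, log scale) against the mean of WT DLP and WT VP (horizontal, log scale), 1 point per gene. The 401 genes at least 2-fold higher in AP are red and the 720 at least 2-fold lower are blue, and Spink1 and Msmb, secreted products of the other lobes, lie farthest below the diagonal.

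A stricter reading asked which genes AP held at least 2-fold above the higher, or below the lower, of the other lobes. Highest in AP in this sense were 145 genes (1.21%), and 303 (2.52%) were lowest. The same reading gave 91 highest and 10 lowest genes for WT DLP, and 294 and 579 for WT VP. AP and VP thus stood at opposite ends for most of these genes, with DLP between. Of the 401 AP-higher genes, DLP was above VP in 366 (91.3%, against 63.7% of all compared genes), and of the 720 AP-lower genes VP was above DLP in 559 (77.6%, against 36.2%). Across genes, Pearson's r of log2(FPKM + 1) was 0.940 between AP and DLP, 0.855 between AP and VP, and 0.914 between DLP and VP, genes not being independent replicates. Against DLP alone 160 genes were higher and 488 lower in AP, and against VP alone 1253 were higher and 974 lower.

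Tgm4, the copulatory plug transglutaminase, was listed at 3016 FPKM in WT AP, 1804 in WT DLP and 0.401 in WT VP. AP was the highest of the 3 lobes, at 1.67 times DLP (exact 95% binomial interval of the reads, 1.66 to 1.69, counting error only), so Tgm4 marked AP and DLP together against VP. Its gene lies at chr9:123034741-123067558 of GRCm38. Of the 4 transglutaminase genes compared, 3 passed the 2-fold threshold upward and none downward. Tgm1, the keratinocyte transglutaminase, had 21.4 FPKM in AP, 3.80 in DLP and 3.42 in VP, a log2 ratio of 2.28. F13a1, the coagulation factor XIII subunit, had 2.47, 0.467 and 0.499 FPKM, so it reached the minimum mean only through AP. With no minimum the median log2 ratio of the transglutaminase list was 0.55, against 1.48 with it. Tgm2, the widely expressed member, differed by a log2 ratio of 0.55.

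Other genes abundant in AP had larger ratios than Tgm4. Glb1l3, a beta-galactosidase-like gene, had 177.2 FPKM in AP and 15.8 in DLP and was listed at 0 in VP, and AP was 11.2 times DLP (interval 10.7 to 11.8). 9530003J23Rik, which lies beside the lysozyme genes Lyz1 and Lyz2 (chr10:117233753-117238681), had 92.2 FPKM in AP, 0.0836 in DLP and was listed at 0 in VP. AP was the only lobe above 1 FPKM for it. Reads of this gene may be shared with the lysozymes, whose sequences are related, and Lyz1 had 1.11, 0.580 and 0.618 FPKM in the same order. 9530053A07Rik, next to Fcgbp on chromosome 7, had 4177 FPKM in AP, 1456 in DLP and 0.179 in VP, and Fcgbp, which encodes an IgG Fc-binding mucus protein, had 133.8, 56.2 and 2.46 FPKM.

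Rpl26, a ribosomal protein gene that every cell uses, had the highest ratio of the named genes (log2 ratio 7.52), with 243.7 FPKM in AP, 0.0103 in DLP and 0.655 in VP. The MYC mouse showed the same split, 260.2 FPKM in AP and 3.69 and 7.33 in the other lobes. A ribosomal gene near 0 in a library cannot be read as its expression, and the value is given only because the rule for naming genes selected it.

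The C1r and C1s genes, which encode the proteases of complement component C1, were all at least 2-fold higher in AP. This family of 5 genes was chosen after its values were seen. Its members lie together on chromosome 6, between 124493113 and 124636085 of GRCm38. C1rb had 369.3 FPKM in AP, 78.2 in DLP and 6.70 in VP. C1s2 had 217.0, 17.1 and 4.66 FPKM, 12.7 times more in AP than in DLP (interval 12.0 to 13.4). No length was found for C1s2, so its reads and the width of this interval rest on the median length of the compared genes. The rodent duplicates C1rb and C1s2 stood higher in AP than their parent genes C1ra (139.6, 52.7 and 18.7 FPKM) and C1s1 (67.3, 39.8 and 23.2 FPKM). C1rl was low throughout, at 2.87, 0.800 and 0.818 FPKM. C1ra and C1rb are near-identical copies, as are C1s1 and C1s2, and their reads may have been split unevenly between copies. A separate list of complement genes, which shares only C1ra and C1rb with that family, had 6 of 17 compared at least 2-fold higher and none lower, with a median log2 ratio of 0.81. The C1q chains C1qa, C1qb and C1qc, made by macrophages, were among the 6.

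The sequence just upstream of 4 genes is shown because they carry the contrast in different ways: Tgm4 was high in AP and DLP, Glb1l3 and Ivl were highest in AP, and Pbsn (probasin), whose promoter was the source of the transgene's, was highest in DLP. The stretches are the 200 bases before the start given for each gene in the RefSeq promoter table on GRCm38.p6. For Glb1l3 and Ivl that start is not the outermost one, since their annotated genes end at 26862099 on chromosome 9 and 92573790 on chromosome 3, so the Glb1l3 stretch lies within the annotated gene and the Ivl stretch overlaps that gene's end. The 4 stretches lie at chr9:123034541-123034740 (plus strand), chr9:26860824-26861023 (minus), chr3:92573736-92573935 (minus) and chrX:77853501-77853700 (minus), read 5′ to 3′ along the gene. Capitals mark matches on either strand to AGAACA, the hexamer of the androgen response element. Also searched was its palindrome, in which the reverse complement of the hexamer follows it after any 3 bases, so that each palindrome would also count as a hexamer. The other letters searched were TGTTTAC for forkhead factors. For posterior Hox factors they were CAATAAA, and for the TATA box TATAAA, and capitals mark these matches too.
Tgm4: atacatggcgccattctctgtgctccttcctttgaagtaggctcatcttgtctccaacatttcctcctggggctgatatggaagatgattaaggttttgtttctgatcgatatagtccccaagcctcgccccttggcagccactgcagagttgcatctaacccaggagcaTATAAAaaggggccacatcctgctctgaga
Glb1l3: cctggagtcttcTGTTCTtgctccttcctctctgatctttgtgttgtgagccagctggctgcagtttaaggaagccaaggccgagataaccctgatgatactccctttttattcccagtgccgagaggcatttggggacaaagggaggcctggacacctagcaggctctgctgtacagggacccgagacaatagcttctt
Ivl: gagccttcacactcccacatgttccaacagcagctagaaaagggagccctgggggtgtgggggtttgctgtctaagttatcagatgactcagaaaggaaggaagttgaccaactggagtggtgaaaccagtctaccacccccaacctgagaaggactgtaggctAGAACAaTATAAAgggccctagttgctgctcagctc
Pbsn: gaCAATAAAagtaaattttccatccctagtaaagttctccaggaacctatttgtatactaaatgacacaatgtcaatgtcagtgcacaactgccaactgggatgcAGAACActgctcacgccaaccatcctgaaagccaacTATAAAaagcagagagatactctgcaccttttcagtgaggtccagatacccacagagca
Tgm4 held a TATA box 30 bases before its start, Ivl a TATA box at 29 bases with the androgen response hexamer at 36, Glb1l3 the hexamer at 188 bases, and Pbsn the hexamer at 95, a TATA box at 59 and CAATAAA at 198. Over the 250 bases before the start, 10.5% of the 9315 compared genes with a listed promoter held the hexamer, 0 held the palindrome, 2.22% TGTTTAC, 2.4% CAATAAA and 6.62% TATAAA. Among the 102 genes highest in AP with a listed promoter, 13 (12.7%) held the hexamer, 1 (0.98%) TGTTTAC, 4 (3.92%) CAATAAA and 17 (16.7%) TATAAA. Among the 198 genes lowest in AP, 37 (18.7%) held the hexamer, 6 (3.03%) TGTTTAC, 3 (1.52%) CAATAAA and 16 (8.08%) TATAAA. A match is a description of the letters only.

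**Figure D2:**
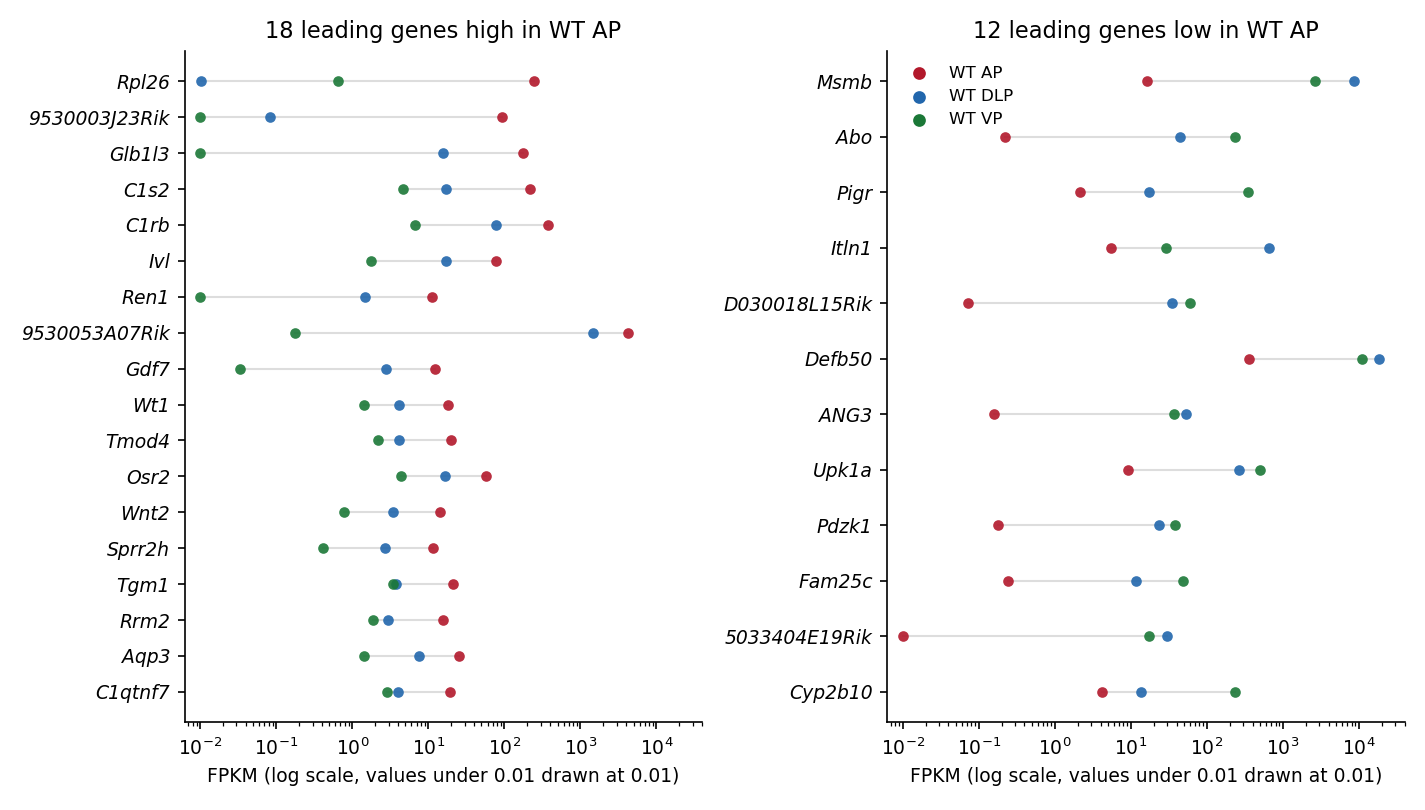
FPKM (log scale, values under 0.01 drawn at 0.01) in the AP, DLP and VP libraries of the WT mouse for the 18 leading genes that were highest in AP (left) and the 12 leading genes that were lowest there (right), 1 point per library. For all 18 genes but Rpl26, DLP lies between AP and VP.

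Among the 18 genes with the largest contrast that were highest in AP, there were ligands and transcription factors. Gdf7, a bone morphogenetic protein family ligand, had 12.3 FPKM in AP, 2.78 in DLP and 0.0331 in VP. Wnt2, a Wnt ligand, had 14.2, 3.38 and 0.769 FPKM. Osr2, a zinc finger transcription factor, had 56.7, 16.6 and 4.32 FPKM, and Wt1, another, had 18.3, 4.12 and 1.41 FPKM. The order AP, DLP, VP was shared by these 4 genes. Ren1, which encodes renin, had 11.3, 1.46 and 0.000774 FPKM, and Aqp3, a water and glycerol channel, had 25.6, 7.59 and 1.45 FPKM. The ribonucleotide reductase subunit Rrm2 (15.7, 2.98 and 1.89 FPKM), the actin-capping gene Tmod4 (20.02, 4.09 and 2.16) and C1qtnf7 (19.2, 3.96 and 2.88) completed the set together with Ivl, Tgm1 and Sprr2h.

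Most secretory products of the other lobes were scarce in AP. Of the 20 prostatic secretion genes compared, 13 were at least 2-fold lower in AP and 4 higher, with a median log2 ratio of -2.29. The 4 higher ones were Tgm4, C1rb, C1s2 and 9530003J23Rik. Msmb, beta-microseminoprotein, had 16.4 FPKM in AP, 8601 in DLP and 2664 in VP, and was 523-fold higher in DLP than in AP. Defb50, a beta-defensin, had 361.2, 18600 and 11123 FPKM. Both were lower in AP than in either other lobe. Pbsn had 3597 FPKM in AP, 14037 in DLP and 2055 in VP, so that its direction differed by lobe, with AP below DLP and above VP. Spink1, a protease inhibitor, was listed at 0 in AP, at 0.197 in DLP and at 25232 FPKM in VP.

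The other leading genes that were lowest in AP had varied roles. Pigr, the polymeric immunoglobulin receptor, had 2.17 FPKM in AP, 17.2 in DLP and 349.2 in VP. Abo, the blood group glycosyltransferase, had 0.222, 44.5 and 231.6 FPKM, and Itln1, an intelectin that binds microbial glycans, had 5.45, 647.4 and 29.3 FPKM. Upk1a, a uroplakin, had 9.27, 267.7 and 493.0 FPKM, while the other uroplakins compared, Upk1b and Upk2, had log2 ratios of -0.40 and -0.28. The scaffold Pdzk1 (0.181, 23.4 and 38.0 FPKM) and the cytochrome Cyp2b10 (4.21, 13.7 and 231.4 FPKM) followed the same order. Of the 12 leading low genes, Abo, D030018L15Rik, Ang3, Pdzk1, Fam25c and 5033404E19Rik rested on fewer than 10 estimated reads in AP, so the size of their difference is imprecise. In the angiogenin family, chosen after its values were seen, 4 of 5 genes were lower in AP, with Ang4 at 0.0801, 30.1 and 17.8 FPKM, whereas Ang was higher (13.8, 10.4 and 0.853 FPKM). Reads of these copies may be shared.

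Genes of the translocon, vesicle coats and chaperones lay mostly below 0, within 2-fold for most members. None of the 23 translocon and signal peptide genes had a ratio above 0, 4 were at least 2-fold lower, and their median was -0.63. The largest differences were those of Sec11c, a signal peptidase subunit (40.9 FPKM in AP, 98.6 in DLP and 185.6 in VP), and Tram1 (30.7, 69.1 and 108.2). Of 25 coat genes of COPII and COPI vesicles, 3 were lower and none higher (median -0.56), with Kdelr3, a receptor that retrieves chaperones, at 7.38, 17.7 and 32.3 FPKM. Of 26 endoplasmic reticulum chaperone genes, 6 were lower and 1 higher (median -0.48), where 5.99% and 3.34% of all compared genes were lower and higher. The 1 higher was the oxidase Ero1l (17.96, 7.33 and 7.75 FPKM). Glycosylation enzymes had a median of -0.14, with 2 of 25 lower, near the share of all genes, and 11 above 0. Brought to equal FPKM sums, the medians of the first 3 lists were -0.47, -0.39 and -0.31. The antioxidant and glutathione genes had a median of -0.61, with 2 of 28 lower (Mgst1 at 23.7, 69.0 and 101.0 FPKM, Gsta4 at 25.3, 65.5 and 61.7) and none higher, a share near the 5.99% of all compared genes that were lower.

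**Figure D3:**
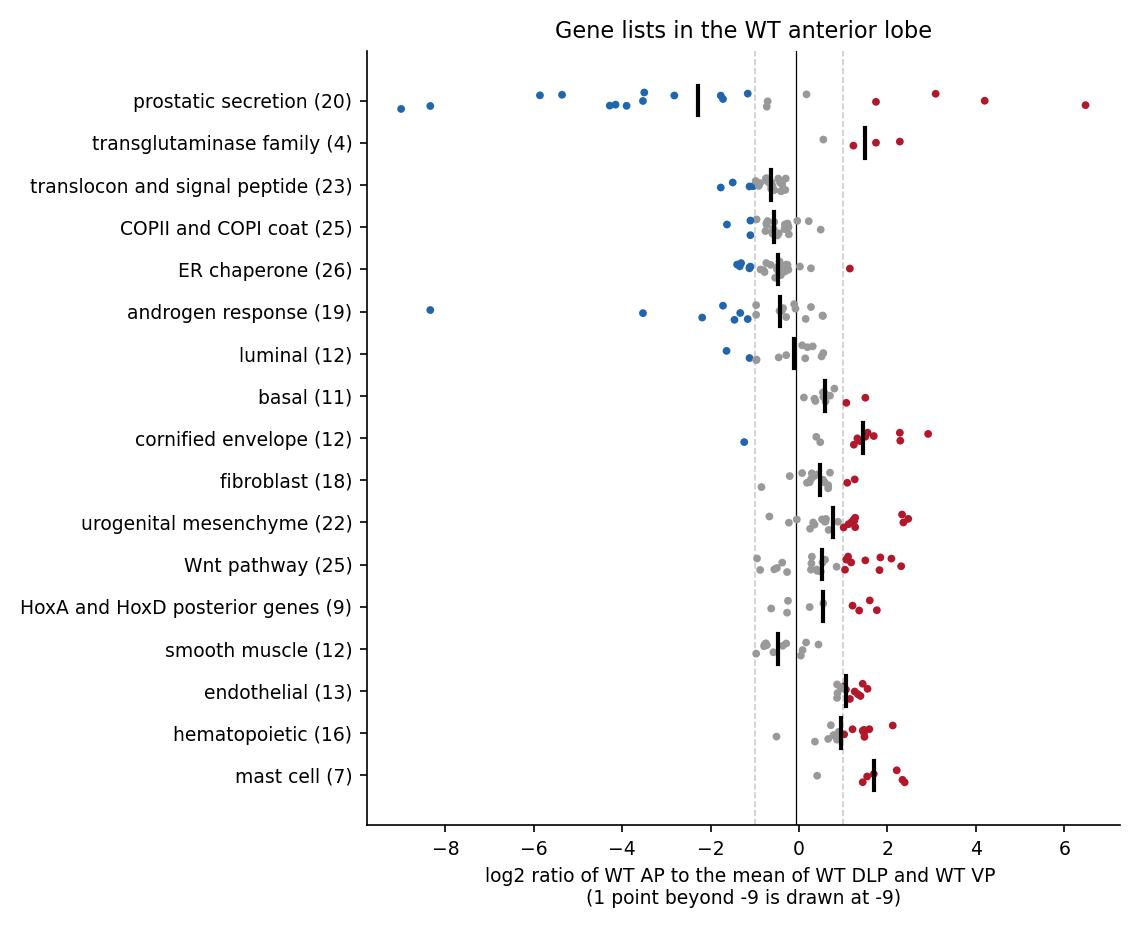
Log2 ratio of WT AP to the mean of WT DLP and WT VP for the compared members of 17 gene lists, 1 point per gene, with the number of members in parentheses and a thick bar at each median. Red and blue points lie beyond the 2-fold threshold (dashed lines), and the thin line is the median of all compared genes (-0.06). The 1 point beyond -9 is drawn at -9.

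Basal markers and genes of the cornified envelope lay mostly above 0. All 11 basal markers had a ratio above 0 (median 0.58), though just 2 passed the threshold: Krt14 with 760.5 FPKM in AP, 378.2 in DLP and 158.3 in VP, and Krt17 with 874.7, 546.6 and 288.2. Krt5, another basal keratin, had 108.9, 114.7 and 33.0 FPKM, so that AP lay slightly below DLP. Against DLP alone the basal median was 0.12, and against VP alone 1.12. Of the 12 cornified envelope genes compared, a list chosen after values were seen, 9 were at least 2-fold higher and 1, Evpl, was lower. Ivl, which encodes involucrin, a scaffold of the envelope, had 78.2 FPKM in AP, 17.2 in DLP and 1.77 in VP (4.55 times DLP, interval 4.27 to 4.86). Sprr1a, a small proline-rich protein that is cross-linked into the envelope, had 3249, 1569 and 648.0 FPKM, and Sfn, an epithelial 14-3-3 protein, 417.8, 217.8 and 102.8.

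Luminal markers did not move as a group. Of 12, none was at least 2-fold higher and 2 were lower (median -0.11, which became 0.05 at equal FPKM sums). The 2 were Krt8 (399.9, 445.7 and 1292 FPKM) and Hoxb13 (44.4, 107.2 and 174.2), the latter a transcription factor of posterior endoderm. Foxa1, a pioneer factor of prostate epithelium, was alike in the 3 lobes at 165.4, 140.7 and 149.4 FPKM. Of the 10 luminal progenitor markers, 3 were lower and none higher: Ppp1r1b (13.1, 51.2 and 62.9 FPKM), Krt4 (10.2, 20.3 and 53.3) and Wfdc2 (13.7, 34.6 and 36.8).

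Of 19 androgen response genes compared, 7 were at least 2-fold lower in AP and none higher (median -0.44), against 5.99% and 3.34% of all compared genes. A ratio above 0 was found for 4 of the 19. Msmb, Pbsn, Azgp1 and Mme among the 7 lower genes also stand in the secretion list, and Pbsn was higher in AP than in VP. Fkbp5, a chaperone that androgen induces, had 11.1 FPKM in AP, 43.8 in DLP and 64.8 in VP. Among 18 prostate transcription factors none was higher and 4 were lower, against the same 3.34% and 5.99%. The 4 included Spdef (4.59 FPKM in AP, 12.5 in DLP and 21.0 in VP), Hoxb13 and Elf3.

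In a list of posterior Hox genes that leaves out Hoxb13 (lower in AP, above), 4 of the 9 compared were at least 2-fold higher in AP and none lower, and 3 of the 4 were of the HoxD cluster on chromosome 2. Hoxd8, of the same cluster, had 2.43, 2.11 and 0.568 FPKM (log2 ratio 0.55). Hoxd13 had 33.6 FPKM in AP, 17.5 in DLP and 7.54 in VP, Hoxd10 had 8.85, 2.36 and 1.47, and Hoxd11 had 6.64, 1.65 and 1.39. Hoxb9 was the fourth, at 13.8, 7.36 and 3.40 FPKM. The 4 HoxA genes compared had log2 ratios between -0.63 and 0.24, with Hoxa10 at 8.70, 16.9 and 11.1 FPKM (log2 ratio -0.63) and Hoxa13 at 5.83, 5.15 and 9.31.

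The stroma was represented in all 3 lobes, with Dcn, a collagen-binding proteoglycan of fibroblasts, at 1060 FPKM in AP, 1155 in DLP and 582.7 in VP. Of 18 fibroblast markers, 2 were at least 2-fold higher in AP (against 3.34% of all genes), Thy1 (31.0, 19.3 and 5.45 FPKM) and Pdgfrb (11.1, 6.67 and 2.66), with a median of 0.47, which was 0.14 against DLP alone and 0.86 against VP alone. Smooth muscle markers had a median of -0.48, with 0 of 12 past either threshold and 4 above 0. Cnn1, calponin, was among those below 0, at 13.2, 31.7 and 21.9 FPKM. Genes of urogenital mesenchyme, a list chosen after values were seen, were at least 2-fold higher in 10 of 22 and lower in none. Beside Gdf7, Wt1 and Osr2 these included the hedgehog effector Gli1 (16.4, 8.43 and 4.04 FPKM) and the LIM homeobox factor Isl1 (12.8, 7.63 and 2.53).

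Wnt pathway genes, also listed after values were seen, were at least 2-fold higher in 9 of 25 and lower in none (median 0.53, and 0.20 against DLP alone). They held ligands (Wnt2, Wnt10a and Wnt6), targets and feedback inhibitors (Notum at 16.9, 5.01 and 1.42 FPKM, Nkd1 at 18.4, 6.07 and 2.94, with Apcdd1), the secreted inhibitors Wif1 (97.4, 63.1 and 21.6 FPKM) and Sfrp2, and the nuclear effector Lef1 (4.74, 2.64 and 0.657). Axin2, a common target, had 15.9, 15.8 and 5.65 FPKM, so that AP and DLP were alike for it.

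Markers of vessels and white blood cells were higher in AP in a larger share than the 3.34% of all genes. All 13 endothelial markers had a ratio above 0, 8 were at least 2-fold higher and the median was 1.06, with Pecam1 at 56.5 FPKM in AP, 37.4 in DLP and 6.25 in VP. Against DLP alone the endothelial median was 0.48, and against VP alone 2.33. Capillary genes, listed after values were seen, were higher in 4 of 6, with Gpihbp1, the lipoprotein lipase anchor, at 41.1, 12.3 and 6.13 FPKM. Of 16 hematopoietic markers 8 were higher and none lower (median 0.96). The macrophage genes Lyz2 (46.0, 11.8 and 7.82 FPKM) and Csf1r (14.3, 5.66 and 2.53) led them, and the class II genes Cd74 (470.8, 228.8 and 108.2) and H2-Aa (217.1, 111.9 and 46.7) were also among the 8. Lyz2 may share reads with Lyz1 and 9530003J23Rik. Mast cell genes, listed after values were seen, were higher in 6 of 7, with Mcpt4, a mast cell chymase, at 8.26, 0.959 and 1.04 FPKM and Tpsb2, a tryptase, at 6.52, 0.673 and 0.297. These 7 are the members of 10 that reached the minimum mean, and Tpsb2 reached it only through AP. The filter thus favours members high in AP, and the count is not evidence beyond it. With no minimum the list median was 1.49, against 1.69 with it. Red blood cell genes gave 0 of 5 past either threshold (median 0.33), and they summed to 915.5 FPKM in AP, 1016 in DLP and 147.5 in VP. The 16 hematopoietic markers compared and the other listed one summed to 1015 FPKM in AP, 502.8 in DLP and 234.6 in VP, and the endothelial markers to 340.0, 235.4 and 50.7. In the WT mouse both lists moved with the complement and mesenchyme genes above, and their part in those results was not tested. In MYC AP the medians were -0.83 for hematopoietic, 1.01 for endothelial, 0.17 for complement and 1.64 for mesenchyme genes.

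Histone genes of the replication-dependent clusters, whose messages mostly lack a poly(A) tail, were lower in AP in 27 of 39 and higher in none (median -1.38, listed after values were seen). Hist1h2bc had 27.2 FPKM in AP, 100.6 in DLP and 128.7 in VP. Of 9 cell cycle genes, 1 (Rrm2) was at least 2-fold higher and none lower (median 0.40), against 3.34% and 5.99% of all compared genes.

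Whether the AP pattern recurs in a different animal was asked of the MYC mouse, whose libraries are separate from those of the WT mouse. Genotype and animal cannot be told apart there. Myc, the mouse gene that the human transgene resembles, had 230.0, 200.6 and 226.4 FPKM in WT AP, DLP and VP, and 230.9, 586.1 and 1696 in the libraries labelled MYC. The library labelled MYC AP was thus about equal to WT AP for this gene, and whether reads of the transgene were counted under this symbol is not given in the sources used here. In that mouse 780 of the same genes (6.49%) were at least 2-fold higher in AP and 618 (5.14%) lower. Of the 401 genes higher in WT AP, 158 (39.4%) were also at least 2-fold higher in MYC AP, 304 had the same sign and 19 were at least 2-fold lower. Of the 720 lower genes, 257 (35.7%) were also at least 2-fold lower, 608 had the same sign and 19 were at least 2-fold higher. Of the 145 genes highest in WT AP, 51 (35.2%) were highest in MYC AP as well, against 3.2% of all genes, and of the 303 lowest, 46 (15.2%) were lowest again, against 1.27%. Pearson's r between the log2 ratios of the mice was 0.519 across genes, and log2(FPKM + 1) of WT AP and MYC AP had an r of 0.964.

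**Figure D4:**
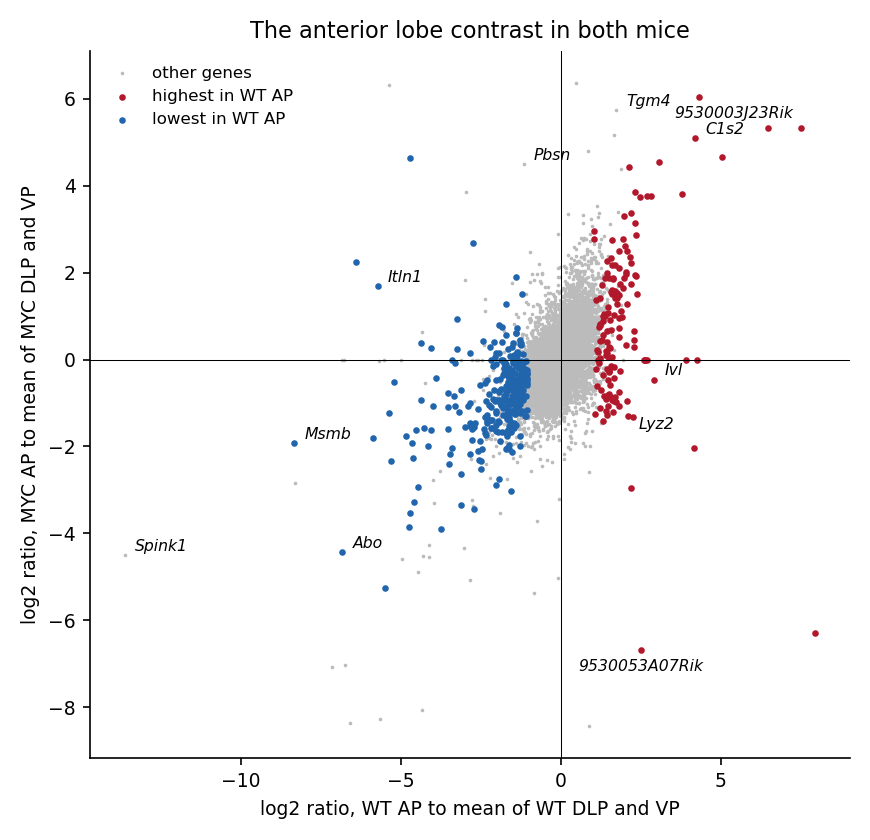
Log2 ratio of AP to the mean of DLP and VP in the MYC mouse (vertical) against the same ratio in the WT mouse (horizontal), 1 point per compared gene. Genes highest in WT AP are red and lowest are blue, and 51 of 145 and 46 of 303 of them were so in MYC AP too.

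Of the 18 genes named as highest, 12 were at least 2-fold higher in MYC AP and 2, 9530053A07Rik and Aqp3, were lower. Rpl26, whose values cannot be read as its expression, is among the 12. Of all compared genes, 6.49% were at least 2-fold higher in MYC AP and 5.14% lower. The remaining 4 of the 18 had log2 ratios of -0.46 (Ivl), 0.28 (Rrm2), 0.45 (Tgm1) and 0.66 (Sprr2h). Of the 12 named as lowest, 10 were lower again, while Upk1a had -0.51 and Itln1 1.70. In the MYC mouse, Glb1l3 stood at 147.3 FPKM in AP and 2.52 in DLP and was listed at 0 in VP. C1s2 stood at 163.1, 6.29 and 1.37 FPKM. All 5 C1r and C1s genes were at least 2-fold higher, as were 17 of 22 mesenchyme genes and 4 of 6 capillary genes. Fibroblast markers moved with the mesenchyme genes, at least 2-fold higher in 15 of 18 in MYC AP (median 1.61) against 2 of 18 in WT AP, and their part in that count was not tested. Tgm4 had 2545 FPKM in MYC AP, close to WT AP, but 92.5 in MYC DLP against 1804 in WT DLP, and its log2 ratio was 5.74 against 1.74 in WT. The cornified envelope genes did not recur, with 0 of 12 at least 2-fold higher in MYC AP, and Ivl had 28.7 FPKM in AP, 67.3 in DLP and 12.4 in VP there. 9530053A07Rik, at 4177 FPKM in WT AP, was listed at 0 in MYC AP while its neighbour Fcgbp had 182.1, and such a 0 cannot be read as absence.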

How the data were processed

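Bulk RNA-seq of 6 libraries was used (3 lobes from each of 2 mice), with groups taken from the sample titles. The deposited values are FPKM, 1 table by gene symbol for all libraries. The authors demultiplexed with bcl2fastq 2.18, mapped with STAR to mm10 and quantified with Cufflinks, per the labels. The gene annotation is not given in the sources used here. The values are not whole numbers, so no count test was run, although the methods speak of read counts. Symbols were matched to RefSeq (GRCm38.p6, 24344 of 24908), which gave spelling, coordinates and promoter sequences.

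Genes whose WT mean reached 1 FPKM were compared by log2((FPKM + 1) of AP / mean (FPKM + 1) of DLP and VP), with a 2-fold threshold. This scale understates the change of low genes. Named were the 18 genes of largest ratio among those with at least 10 FPKM in AP and 2-fold above the higher other lobe, the 12 of lowest ratio among those with at least 10 FPKM in both other lobes and 2-fold below the lower, the members of the secretion, transglutaminase, luminal, basal, luminal progenitor and seminal vesicle lists, and the leading genes of the other lists. Genes of small RNAs were left out. Some genes of the lists are not reported here. Members, lists and the genes whose sequence is shown were chosen with earlier results of these data known, and 8 lists, named as such in the text, after the values were seen. Other genes in the text were chosen after their values were seen.

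Depth was estimated from the steps of low FPKM (under 0.3) of genes with 1 exon and 1 transcript over 600 bp, using GENCODE M1 lengths less 200 bp. Between 34.4% and 48.3% of these values lay within 3% of a read of a whole number, where 6.0% would by chance, so the depth is approximate. Estimated reads (89.9% of compared genes had a length, the rest took the median) gave exact 95% binomial (Clopper-Pearson) intervals of ratios between libraries, which cover counting error only. The computation was tested on simulated libraries. Alternatives were other scalings, pseudocounts, minimums and thresholds, and thinning to the depth of WT AP. Scripts ran in Python 3.11.15 with pandas 2.3.3, numpy 2.4.6 and scipy 1.17.1, and figures were drawn in matplotlib 3.10.9.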

Additional observations from a re-analysis of the deposited data

Results flagged for a closer look

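Several contrasts of AP with the other lobes pointed in opposite directions in the WT and the MYC mouse. With 1 mouse per genotype the differences between the mice were not tested, and genotype, lesions of DLP and VP, and animal cannot be told apart. Among the gene lists, hematopoietic markers had a median log2 ratio of 0.96 in WT and -0.83 in MYC, where their summed level was 732.7 FPKM in AP, 1944 in DLP and 616.6 in VP. Cell cycle genes went from 0.40 to -0.60, and smooth muscle markers from -0.48 to 0.72.

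Among single genes, Pbsn had a log2 ratio of -1.16 in WT and 4.51 in MYC, where it had 3084 FPKM in AP, 267.3 in DLP and 1.90 in VP. Its AP level thus lay close to that of WT AP, and the other lobes differed. Itln1 had 1.70 in MYC (4.90, 1.20 and 0.417 FPKM) and 9530053A07Rik -6.68, resting on the 0 listed for MYC AP. Aqp3 had -1.32, Lyz2 -1.31, the polyamine oxidase Smox -1.10 and the interferon-induced gene Rtp4 -1.01, each at least 2-fold higher in WT AP. Ceacam10, a seminal vesicle marker, was at 0.650 FPKM in WT AP and 8.79 in MYC AP. Its log2 ratio in MYC was 1.33, beside the sum of 532.9 FPKM of the seminal vesicle markers in that library.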

How the results depend on the processing

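No paired analysis was possible because the WT comparison holds 1 mouse, so there is a single WT library per lobe. A fit of lobe with mouse as a block over the 6 libraries would be a different comparison, of both genotypes, and was not run. Main counts, shares and correlations moved by more than their tolerance (1.5 times for a count, the exact binomial interval for a share, 0.05 for r) in 27 comparisons and stayed within it in 83. Genes higher in AP (401) numbered 662 at equal FPKM sums, 636 with a pseudocount of 0.1, 151 with a minimum of 10 FPKM, 160 against DLP alone, 1253 against VP alone and 44 at 4-fold. Genes lower in AP (720) numbered 371 at the minimum of 10 FPKM and 161 at 4-fold. Genes highest in AP (145) numbered 251, 227, 50 and 25 at equal sums, pseudocount 0.1, minimum 10 FPKM and 4-fold, and genes lowest (303) 481, 168 and 51 under the last 3. The share of higher genes repeated in MYC AP (39.4%) was 49.1% at equal sums, 49.7% at equal sums without the 20 highest genes, 33.1% at the minimum of 10 FPKM, 69.2% against VP alone and 45.5% at 4-fold. The share of lower genes (35.7%) was 30.4%, 28.7%, 17.6% against DLP alone, 44.8% against VP alone and 29.2% at 4-fold. The base of these shares moved with the reference. Of all 12018 compared genes, 780 were higher and 618 lower in MYC AP in the main setting. Against VP alone 1934 were higher and 1004 lower, and against DLP alone 421 were lower. The shares against 1 lobe thus cannot be read as stronger or weaker repetition. The correlation of AP with VP (0.855) was 0.928 with no minimum and 0.731 at 10 FPKM. Causes were not tested beyond the fewer genes and other references these settings imply. Medians of gene lists moved in 27 comparisons and stayed in 403, and most of the 27 had DLP or VP alone as the reference. Equal sums moved the median ratio of all genes from -0.06 to 0.09. The ratios of single named genes moved in 96 comparisons, stayed in 243 and reversed in 1, Pbsn, to 0.81 against VP alone. Tgm4 had 0.74 against DLP alone. The minimum of 10 FPKM removed 9 of the 30 leading genes, which were chosen for their size, and leaving out genes with a 0 removed 3. The depth of WT AP limits low genes, yet thinning all WT libraries to it gave 414 higher and 723 lower genes. 1 mouse limits everything else.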

Other observations

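Some transport and barrier genes also differed in AP, where 3.34% of all compared genes were higher and 5.99% lower. The median of the claudin list was -0.50, and -0.16 against DLP alone or VP alone. Of 10 claudins compared, Cldn1 was at least 2-fold higher in AP (223.3 FPKM, against 91.1 in DLP and 48.2 in VP), while Cldn3 (75.3, 118.8 and 538.1), Cldn10 (8.13, 36.2 and 60.4), Cldn23 (4.33, 4.70 and 41.0) and Cldn11 were lower. Of 15 water and ion transport genes 2 were higher (Aqp1 and Aqp3) and 4 lower, among them Slc12a2, a sodium-potassium-chloride cotransporter (11.6, 49.3 and 234.6 FPKM), Slc26a4, an anion exchanger (0.0540, 3.02 and 23.4), and the calcium channel Trpv6 (0.115, 0.622 and 32.3). The ionocyte factor Foxi1 had 5.43, 2.75 and 0.0281 FPKM, so that DLP lay between AP and VP. Slc30a2, a zinc exporter, had 17.4, 18.6 and 0.353 FPKM, and for it AP and DLP stood together against VP.

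Of 15 zinc and metallothionein genes 2 were at least 2-fold higher in AP and 1 lower (median 0.19), against 3.34% and 5.99% of all compared genes. The 2 higher ones were the metallothioneins Mt1 and Mt2, which bind zinc and copper, with Mt1 at 4662 FPKM in AP, 2637 in DLP and 1508 in VP and Mt2 at 3656, 2210 and 1031. Mt3, picked after its values were seen, had 20.3 FPKM in AP, 5.43 in DLP and 2.004 in VP. Of 20 glycolysis and fructose genes 2 were at least 2-fold higher, against 3.34% of all compared genes, and none lower. They were Sord, which makes fructose from sorbitol (53.7, 39.7 and 12.6 FPKM), and Akr1b3, the aldose reductase before it (4.71, 0.584 and 0.777). Of 21 citrate cycle genes 1 was lower (Suclg1 at 12.7, 34.1 and 42.0 FPKM) and none higher, near the 5.99% of all compared genes that were lower. Of 13 polyamine genes, Smox was higher (44.4, 23.6 and 16.3 FPKM) and 4 were lower, against 3.34% and 5.99% of all compared genes. Oaz1 was among the 4 (39.5, 72.8 and 111.5 FPKM). Immediate early genes, which tissue dissociation can induce, were high in all 3 lobes, with sums of 17514, 13999 and 15926 FPKM over 25 genes, and 3 of them (Egr3, Fosl1 and Ier3) were at least 2-fold higher in AP, against 3.34% of all compared genes. Of 25 interferon-stimulated genes 2 were higher, Ifit2 and Rtp4, and none lower, against 3.34% and 5.99% of all compared genes.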
